A study of Homo sapiens with 6 samples.

Results

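The mRNAs of 10 plasma membrane transporters of amino acids were followed in U251 cells, an established human glioblastoma line. They were SLC3A2, SLC7A5, SLC7A11, SLC7A6, SLC7A1, SLC1A5, SLC1A4, SLC38A2, SLC38A1 and SLC43A1, taken by symbol, and all 10 had a row among the 20330 Ensembl genes of each table. RNA sequencing gave 6 libraries in 2 groups of 3: U251 cells with stable overexpression of the long noncoding RNA XLOC013218, and U251 control cells. The labels do not say what the control cells carry, how the overexpression was driven or whether the replicates are separate clones, and all errors below are those between libraries, which may be technical in part. The genes were chosen by function with their FPKM differences in this same comparison known. Those differences are therefore given as a description, with no test read from them.

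Cells import most of their essential amino acids through carriers of the SLC families. Some work as heterodimers, in which the glycoprotein heavy chain 4F2hc, encoded by SLC3A2, is bound by a disulfide to a light chain that carries the substrate and is needed to bring it to the surface. Others work without it, as sodium-coupled carriers or exchangers that concentrate small neutral amino acids and glutamine, or as uniporters. Several of these genes are known targets of the transcription factors ATF4, which is translated when amino acids run short, and MYC, and glioma cells are known to use cystine, glutamine and leucine carriers heavily.

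The start regions of the genes are shown because several of the genes are known targets of these factors. They were searched with the differences between the groups known, and whether these factors take part in them was not tested. RefSeq windows (build GRCh38.p14) were matched by symbol for 9 of the 10 genes, 16 windows in all, since some genes have several starts. SLC7A11 had none. In the 250 bases before each start, 10 motifs were searched on both strands, and 3 of them are described, kept after the matches were seen: the E-box CACGTG, which MYC and related factors bind, the ATF4 composite element TGATGCAA, and TGACNNNGC, the core of the antioxidant response element that NRF2 binds. The first sequence is the whole window of SLC7A5, at chr16:87869508-87869757 on the minus strand. The others are 30-base stretches around the match, at chr11:62881652-62881681 on the plus strand for a start of SLC3A2 inside the longer gene, and at chr19:46784893-46784922 on the minus strand for an internal start of SLC1A5. Capitals mark the matched letters.
SLC7A5, E-box: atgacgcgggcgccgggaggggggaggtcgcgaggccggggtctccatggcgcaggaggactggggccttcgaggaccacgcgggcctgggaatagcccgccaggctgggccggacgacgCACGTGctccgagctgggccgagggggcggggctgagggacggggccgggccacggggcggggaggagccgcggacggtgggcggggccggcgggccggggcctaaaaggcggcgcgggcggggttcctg
SLC3A2, antioxidant core: cgagggtgggTGACTCAGCgtcctccttcc
SLC1A5, ATF4 element: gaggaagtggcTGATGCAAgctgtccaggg
The E-box was found in 3 of the 16 windows, those of SLC7A5, SLC1A5 and SLC43A1, and in 6.34% of all 35116 windows of that length. The ATF4 element was found in 1 of the 16 windows, of SLC1A5, and in 0.772% of all windows. The antioxidant core was found in 4 of the 16 windows, of SLC3A2, SLC7A1, SLC7A6 and SLC1A5, and in 10.9% of all windows. For SLC1A5, the E-box and the antioxidant core lay in the window of another internal start, at chr19:46787294-46787543. The window of its outermost start, at chr19:46788595-46788844, held no match to the kept motifs. The match of SLC3A2 also holds TGACTCA, the letters of the AP-1 element. The 7 motifs not kept were TGATGNAA (3.14% of all windows; SLC1A5), TGATG (28.8%; SLC1A5, SLC38A1 and SLC43A1), TATAAA (10.7%; SLC38A1), TGACGTCA (1.65%; 0 of the 9 genes), TGACGT (7.1%; SLC7A6), CCAAT (32%; SLC1A4, SLC1A5, SLC3A2 and SLC7A1) and GGGCGG (42.6%; all 9 genes). Some overlap each other or the kept ones, since TGATG is part of both ATF4 forms and TGACGT of TGACGTCA. For these 7 motifs genes are listed and not windows. A gene with several windows can match in any of them, so the genes cannot be set against the share of windows. A match is a description of the letters and shows no binding.

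The authors' values were gene-level FPKM, a fragment count scaled for transcript length and library size, so that levels of different genes can be set side by side. Read totals are not in these values. From the steps between low FPKM values, depth relative to control replicate 2 was estimated at 0.77 to 0.89 in overexpressing cells and 0.77 to 1.0 in control cells, using genes listed at 0 in 2 or more libraries. A first estimate over all low genes had given 0.78 to 1.01 in overexpressing cells and 0.94 to 1.07 in control cells, and the narrower gene set was adopted after those values were seen, so depth is known only roughly. Of 9 listed glial and glioma markers, VIM averaged 3581 ± 109 FPKM in overexpressing cells and 3840 ± 222 FPKM in control cells. GFAP averaged 21.6 ± 7.91 FPKM against 41.6 ± 6.06 FPKM, and SOX2 101.7 ± 3.37 FPKM against 116.4 ± 2.44 FPKM (SD, n = 3 each). GFAP (limma adjusted p = 0.107) and SOX2 (limma adjusted p = 0.12) were lower in every overexpression library than in any control library, as were 10.1% of all tested genes. The groups overlapped in VIM, NES and CD44. Of the 5 tested, 0 had a log2 fold change above 0, against 49.7% of all tested genes, and 0 were called. S100B, OLIG2, ALDH1L1 and AQP4 were below 1 FPKM. Of 13 listed markers of other cell types, 9 averaged below 1 FPKM and CD3E was listed at 0 in every library. The summed level of these 13 markers was 28.8 to 35.7 FPKM in overexpressing cells and 24.1 to 25.5 FPKM in control cells. CD68 (limma adjusted p = 0.0831), COL1A1 (limma adjusted p = 0.295) and PTPRC were higher in every overexpression library than in any control library. PTPRC averaged only 0.335 FPKM and was not tested. The groups overlapped in the rest of these 13 markers, and 8.81% of all tested genes were apart with higher overexpression values. The part of these 13 markers in the values of the transporters was not tested. In such bulk samples, fewer cells of a type and less RNA per cell cannot be told apart.

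The 10 transporters spanned a wide range of levels. SLC38A2, at a mean of 149 FPKM over the 6 libraries, and SLC3A2, at 144 FPKM, were the most abundant, and their ranges overlapped, with each ahead in 3 libraries. SLC1A5 followed at 102 FPKM and SLC7A5 at 63.5 FPKM, each below its neighbour in all 6 libraries with no overlap. SLC7A6 (32.4 FPKM) and SLC38A1 (31.6 FPKM) did not differ beyond their spread, and each was ahead in 3 libraries. SLC7A1 averaged 27.0 FPKM, below SLC38A1 in each library although the 2 ranges touched. SLC7A11 averaged 10.2 FPKM and SLC1A4 6.55 FPKM, apart from each other and from their neighbours. SLC43A1 averaged 0.678 FPKM and was under the 1 FPKM mean asked of a gene to enter the fit, so 9 of the 10 were fitted.

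**Figure D1:**
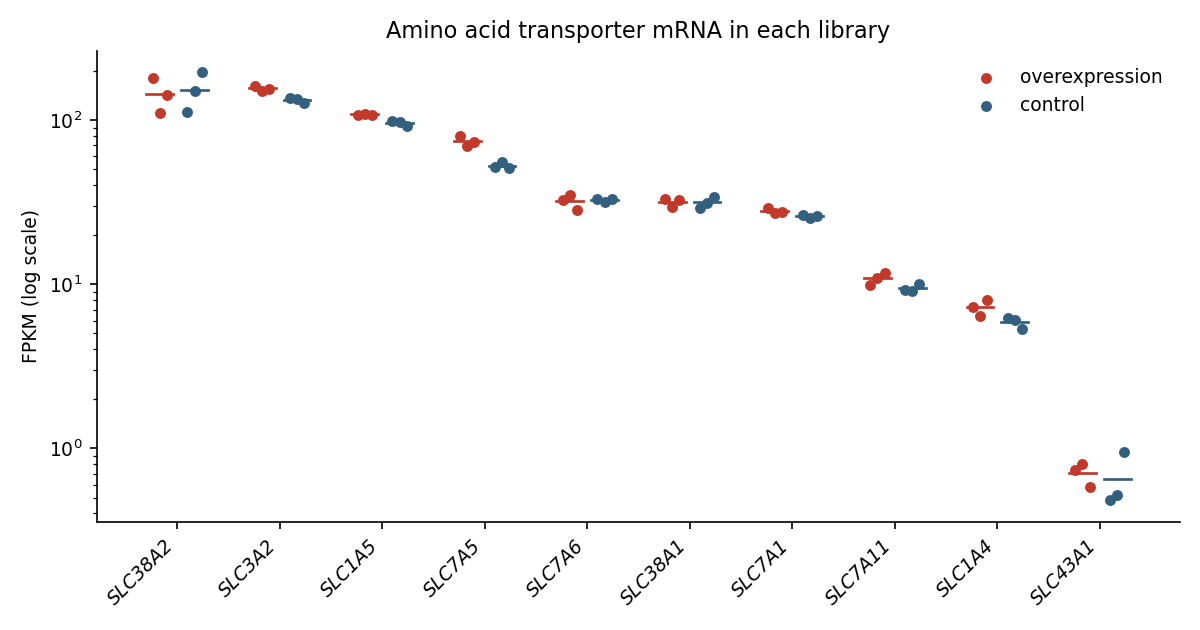
FPKM of the 10 transporters on a log axis, in order of mean level. Each point is a library, 3 of overexpressing cells (red, left) and 3 of control cells (blue, right), and each line is the group mean. SLC7A5 lies at 69.2 to 80.3 FPKM in overexpressing cells and 51.0 to 55.3 FPKM in control cells, while the 2 groups of SLC38A2 cover the same range.

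Between the groups, SLC7A5 differed most among the 9, followed by SLC1A4 and then by SLC3A2, the partner chain of SLC7A5. Fold changes are differences in log2(FPKM + 1), overexpression minus control, with standard errors from limma fitted to all 11731 genes with a mean of at least 1 FPKM. A gene counted as called at a Benjamini-Hochberg adjusted p under 0.05 over all these genes. SLC7A5 was called higher, 0 of the 9 were called lower and 8 were not called. The call of SLC7A5 was lost in 8 of 12 alternatives: when low genes were kept, when limma was run without its trend, with the replicate number as a block, and in 5 of the 6 fits that left out a library. Over all tested genes, 0.315% were called higher (37) and 0.205% lower (24), a split that became 30 higher and 31 lower after rescaling to TPM. For the 9, the log2 fold changes had a median of 0.17, against -0.001 for all tested genes, whose middle range between the quartiles ran from -0.08 to 0.08. In 5 of the 9, SLC7A5, SLC3A2, SLC1A5, SLC7A1 and SLC1A4, all 3 overexpression values lay above all 3 control values, and in 0 of the 9 did they lie below. Among all tested genes, 8.81% were apart in this way with higher and 10.1% with lower overexpression values. Since the genes were proposed with this comparison known, nothing is read from these counts.

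**Figure D2:**
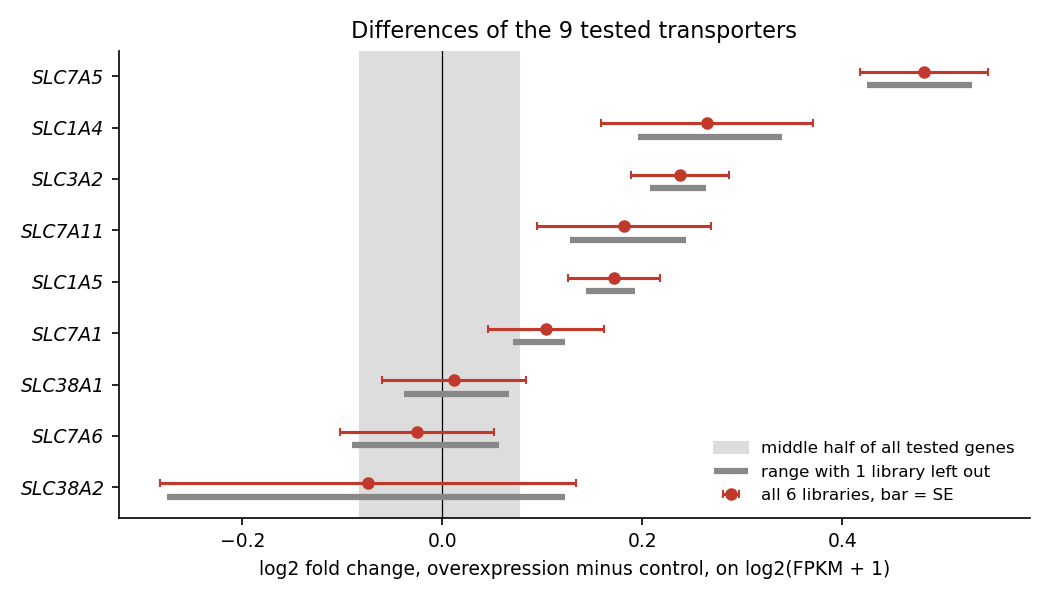
Log2 fold change of the 9 fitted transporters, overexpression minus control. Red points and bars give the value and SE from all 6 libraries, dark grey bars the range when each library is left out in turn, and the light band the middle range of all tested genes (-0.08 to 0.08). SLC7A5 stands at 0.48, and the leave-one-out bars of SLC38A1, SLC7A6 and SLC38A2 cross 0.

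The heavy chain SLC3A2 (ENSG00000168003, chromosome 11), encoding 4F2hc, had 162.2, 150.5 and 155.4 FPKM in overexpression replicates 1 to 3, against 136.1, 133.7 and 126.6 FPKM in control replicates 1 to 3. Each overexpression library was above each control library. The means were 156 ± 5.88 FPKM and 132 ± 4.92 FPKM (SD, n = 3 each), an 18.1% higher mean and a log2 fold change of 0.24 (SE 0.05).

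The light chain SLC7A5 (ENSG00000103257, chromosome 16) encodes LAT1, the exchanger that brings in leucine and other large neutral amino acids. Its levels were 80.3, 69.2 and 73.2 FPKM in overexpression replicates 1 to 3 and 52.0, 55.3 and 51.0 FPKM in control replicates 1 to 3. All overexpression libraries lay well above the control libraries, with replicate 1 highest. The means were 74.2 ± 5.60 FPKM and 52.8 ± 2.27 FPKM (SD, n = 3 each), a 40.6% higher mean with a log2 fold change of 0.48 (SE 0.06). With single libraries left out, the log2 fold change lay between 0.425 and 0.53, but SLC7A5 was called only without overexpression replicate 2, at 0.53. It was not called without overexpression replicate 1 (0.425) or 3 (0.49), or without control replicate 1 (0.47), 2 (0.52) or 3 (0.46). Antisense transcripts overlap SLC7A5 (AC126696.2), SLC7A11 (SLC7A11-AS1), SLC1A5 (AC008622.2) and SLC38A2 (AC025031.2) on the other strand, and without strand their reads cannot be told apart from those of the transporters. The near-identical copies SLC7A5P1 and SLC7A5P2 were looked up by symbol and had no matched row, and how the authors split reads shared with them is not stated.

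The light chain SLC7A11 (ENSG00000151012, chromosome 4) encodes xCT, which exchanges glutamate for cystine and feeds glutathione synthesis. Its levels were 9.87, 10.96 and 11.77 FPKM in overexpression replicates 1 to 3 and 9.24, 9.11 and 9.98 FPKM in control replicates 1 to 3. The groups overlapped narrowly, since control replicate 3 was above overexpression replicate 1. The log2 fold change was 0.18 (SE 0.09).

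SLC7A6 (ENSG00000103064, chromosome 16), the light chain y+LAT2 that exchanges arginine for glutamine, showed no difference beyond its spread. It had 32.8, 35.1 and 28.5 FPKM in overexpression replicates 1 to 3 and 33.1, 31.8 and 32.9 FPKM in control replicates 1 to 3, and the control values lay inside the overexpression range. The log2 fold change was -0.02 (SE 0.08) and changed sign, to 0.06, without overexpression replicate 3. SLC7A6OS, which overlaps SLC7A6 on the other strand, averaged 11.6 ± 1.24 FPKM in overexpressing cells and 10.4 ± 1.99 FPKM in control cells (SD, n = 3 each), and the sources do not say whether counting used the strand.

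Set against each other, the chain mRNAs showed higher FPKM of the heavy chain than of the light chains in both groups. The SLC7A5 share of the light chain FPKM was larger in overexpressing cells. Protein was not measured. SLC3A2 exceeded the sum of the 3 light chains in every library, by a ratio of 1.32, 1.31 and 1.37 in overexpression replicates 1 to 3 and 1.44, 1.39 and 1.35 in control replicates 1 to 3, and these ratios overlapped between the groups. The ratio of SLC7A5 to SLC3A2 was 0.495, 0.46 and 0.471 in overexpression replicates 1 to 3 and 0.382, 0.414 and 0.403 in control replicates 1 to 3, without overlap. SLC7A5 made up 60.0% to 65.3% of the summed light chain FPKM in overexpressing cells and 54.3% to 57.5% in control cells. The other light chains that bind 4F2hc were scarce: SLC7A7 and SLC7A8 averaged 0.285 and 0.112 FPKM over the 6 libraries, and SLC7A10 was listed at 0 in all of them.

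**Figure D3:**
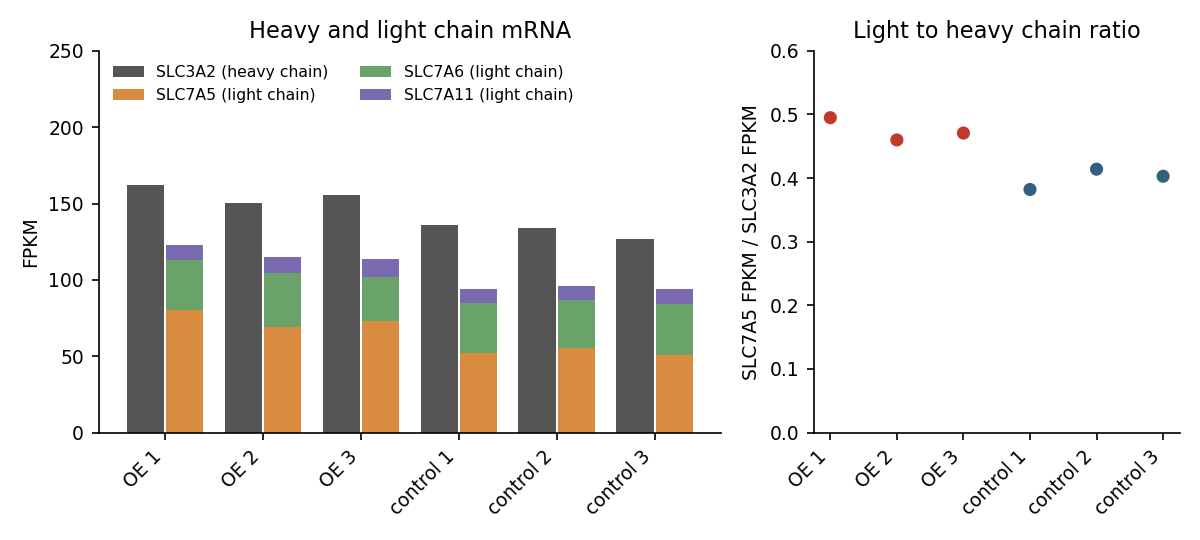
Left, FPKM of the heavy chain SLC3A2 (grey) and of the 3 light chains stacked beside it, for each library (OE, overexpression). Right, the ratio of SLC7A5 to SLC3A2 FPKM per library, which is 0.46 to 0.495 in overexpressing cells and 0.382 to 0.414 in control cells.

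Of the carriers that work without 4F2hc, SLC7A1 (ENSG00000139514, chromosome 13) encodes CAT1, the carrier of arginine and lysine. It had 29.3, 27.2 and 27.4 FPKM in overexpression replicates 1 to 3 and 26.2, 25.4 and 26.2 FPKM in control replicates 1 to 3. The groups did not overlap, but the gap was small, with a log2 fold change of 0.10 (SE 0.06).

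The exchangers SLC1A5 and SLC1A4 were both higher in each overexpression library. SLC1A5 (ENSG00000105281, chromosome 19), encoding ASCT2, the main glutamine exchanger of many tumour cells, had 107.8, 109.4 and 107.5 FPKM in overexpression replicates 1 to 3 and 98.8, 96.9 and 92.3 FPKM in control replicates 1 to 3. Its log2 fold change was 0.17 (SE 0.05), and its overexpression libraries lay close together, with an SD of 1.01 FPKM around a mean of 108.2 FPKM. SLC1A4 (ENSG00000115902, chromosome 2), encoding ASCT1, which exchanges serine, alanine and other small neutral amino acids, was far less abundant. It had 7.28, 6.42 and 8.05 FPKM in overexpression replicates 1 to 3 and 6.24, 6.03 and 5.29 FPKM in control replicates 1 to 3, so that the nearest values of the groups differed by less than the spread within either. The log2 fold change was 0.26 (SE 0.11). The ratio of SLC1A5 to SLC1A4 was 13.4 to 17.04 in overexpressing cells and 15.8 to 17.4 in control cells, with overlap.

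The sodium-coupled carriers SLC38A1 and SLC38A2 did not separate the groups. SLC38A1 (ENSG00000111371, chromosome 12), encoding SNAT1, a concentrating carrier of glutamine, had 33.1, 29.6 and 32.6 FPKM in overexpression replicates 1 to 3 and 29.3, 31.3 and 34.0 FPKM in control replicates 1 to 3. The log2 fold change was 0.01 (SE 0.07), and it fell below 0 after rescaling to TPM and without overexpression replicate 1 or 3 or control replicate 1. SLC38A2 (ENSG00000134294, chromosome 12), encoding SNAT2, the carrier known to be induced by amino acid shortage and by hypertonic medium, had 181.5, 110.0 and 141.7 FPKM in overexpression replicates 1 to 3 and 112.5, 149.8 and 195.9 FPKM in control replicates 1 to 3. The highest and lowest libraries of the gene differed by more within each group than the group means did. The log2 fold change was -0.07 (SE 0.21), and it turned to 0.11 without overexpression replicate 2 and to 0.12 without control replicate 3.

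SLC38A2 stood out by this spread between libraries of the same group. Its SD within groups was 0.38 on the log2(FPKM + 1) scale, against a median of 0.10 over all tested genes, and 1.49% of tested genes had an SD at least as large. Of the 2396 tested genes with a mean of 50 FPKM or more, 7 had such an SD, SLC38A2 included. Those described here are ATP1B1, a subunit of the sodium pump, IGFBP5, ALPK2 and PNRC2, chosen after their values were seen. In 5 of the 7, among them ATP1B1, IGFBP5 and ALPK2 but not PNRC2, the libraries fell in the same order as in SLC38A2, with overexpression replicate 1 highest and 2 lowest, and control replicate 3 highest and 1 lowest. This order within both groups was found in 569 tested genes, or 4.85%. It was taken up after a stricter match, the same order over all 6 libraries (28 genes, 0.239%), had been seen to miss genes that share the order within groups, such as SLC6A9. ATP1B1 had 224.2, 87.7 and 115.6 FPKM in overexpression replicates 1 to 3 and 94.8, 146.3 and 195.2 FPKM in control replicates 1 to 3. SLC6A9, the glycine transporter GLYT1, had the same order at 36.6, 18.9 and 27.5 FPKM in overexpression replicates 1 to 3 and 19.8, 24.4 and 29.3 FPKM in control replicates 1 to 3. What made these libraries differ was not tested.

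**Figure D4:**
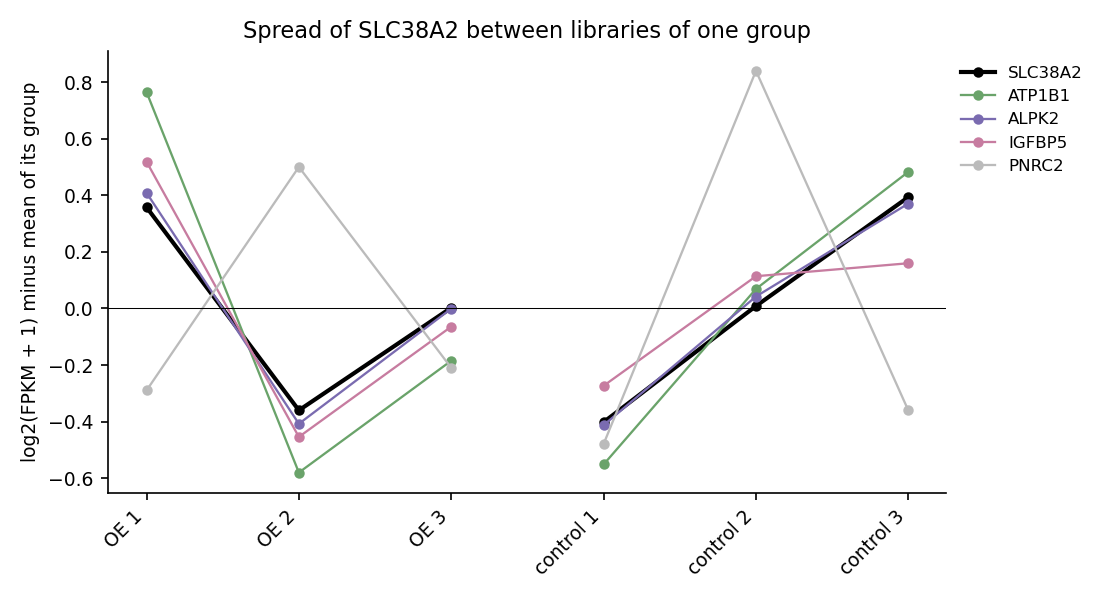
Log2(FPKM + 1) of SLC38A2 (black) and of 4 other genes of at least 50 FPKM with a spread at least as large, each minus the mean of its group, by library (OE, overexpression). Lines join the libraries of a group to guide the eye and stand for no order of replicates. ATP1B1, ALPK2 and IGFBP5 place the libraries as SLC38A2 does, and PNRC2 does not.

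Within the overexpression group, the transporters did not all place the libraries alike. Replicate 1 was highest and replicate 2 lowest for SLC3A2, SLC7A5, SLC7A1, SLC38A1 and SLC38A2, 5 of the 9, an order that 19.5% of all tested genes had. SLC7A11 and SLC1A4 were instead highest in replicate 3, and SLC1A5 and SLC7A6 were highest in replicate 2.

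SLC43A1 (ENSG00000149150, chromosome 11), encoding LAT3, a uniporter of large neutral amino acids known from liver and prostate, was close to the lower end of detection. It had 0.74, 0.80 and 0.58 FPKM in overexpression replicates 1 to 3 and 0.48, 0.52 and 0.95 FPKM in control replicates 1 to 3, with overlap, and no fold change is given.

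The other amino acid transporters were mostly scarce in these cells. Of 42 further carriers, 40 had a row, 26 of them averaged below 1 FPKM and 7 were listed at 0 in all libraries. Of the 14 tested, 0 were called by limma, against 0.52% of all tested genes, and 1 had an unadjusted p under 0.05, against 12.7% of all tested genes. A log2 fold change above 0 was found in 5 of the 14, against 49.7% of all tested genes, and the median was -0.02. With 14 genes, 0 calls are close to what that share gives. The most abundant were SLC38A10, at 47.9 ± 2.59 FPKM in overexpressing cells and 48.4 ± 1.91 FPKM in control cells, SLC6A9 and SLC36A4 (22.4 ± 0.778 and 23.0 ± 2.39 FPKM; SD, n = 3 each). SLC38A6, an orphan carrier of the SNAT family, had the lowest p, at 6.06 ± 0.747 FPKM in overexpressing cells and 7.95 ± 0.838 FPKM in control cells (log2 fold change -0.34, SE 0.11, limma adjusted p = 0.2501). SLC38A9, the arginine sensor of the lysosome, was next, at 17.2 ± 0.757 FPKM in overexpressing cells and 15.0 ± 1.83 FPKM in control cells (limma adjusted p = 0.431).

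CHAC1 and ASNS stand in more than 1 of the lists below. These lists too were chosen with earlier results of these data known, so nothing is read from their counts or medians. Regulators and targets of the ATF4 response to amino acid shortage were taken as 1 list. Of 20 tested regulators and targets, 0 were called by limma and 14 had an unadjusted p under 0.05, all 14 with higher overexpression values, against 12.7% of all tested genes in either direction. The median log2 fold change was 0.20 and 11 of the 20 were apart with higher values, against 8.81% of all tested genes. ATF4 itself averaged 189 ± 17.4 FPKM in overexpressing cells and 169 ± 5.33 FPKM in control cells, with overlap. DDIT3, the transcription factor CHOP, had the lowest p, at 39.8 ± 3.58 FPKM in overexpressing cells and 30.3 ± 0.262 FPKM in control cells (log2 fold change 0.38, limma adjusted p = 0.0537). PSAT1, of serine synthesis, averaged 63.3 ± 2.38 FPKM in overexpressing cells and 52.2 ± 2.01 FPKM in control cells (SD, n = 3 each, limma adjusted p = 0.0663).

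Genes that use or sense the imported amino acids are set beside the same shares of all tested genes, 0.52% called and 12.7% with an unadjusted p under 0.05. Of 20 cytosolic aminoacyl-tRNA synthetases, 0 were called by limma and 2 had an unadjusted p under 0.05, near that share. Their median log2 fold change was 0.06, 18 of the 20 were above 0, against 49.7% of all tested genes, and 7 were apart with higher values, against 8.81%. WARS1, the tryptophan enzyme, had the lowest p of them, at 128 ± 10.6 FPKM in overexpressing cells and 100.3 ± 2.07 FPKM in control cells (limma adjusted p = 0.0537). Among 17 tested enzymes of glutamine, glutamate and asparagine, 0 were called by limma, 3 had an unadjusted p under 0.05, close to the 12.7% of all tested genes, and the median was 0.07. ASNS, asparagine synthetase, averaged 41.0 ± 2.45 FPKM in overexpressing cells and 34.8 ± 1.60 FPKM in control cells (limma adjusted p = 0.164). For cystine use and glutathione, 15 genes gave 0 calls by limma, 2 unadjusted p under 0.05, again near 12.7%, and a median of -0.02. CHAC1, which degrades glutathione, averaged 22.5 ± 6.99 FPKM in overexpressing cells and 15.8 ± 1.12 FPKM in control cells (SD, n = 3 each, limma adjusted p = 0.318), with overexpression replicate 1 far above the rest at 30.5 FPKM. The 32 tested genes of amino acid sensing by mTORC1 gave 0 calls by limma, 3 unadjusted p under 0.05 and a median of 0.02, and the 9 genes of branched-chain and leucine use gave 0 calls by limma, 1 unadjusted p under 0.05 and a median of -0.07. Neither count is above the 12.7% of all tested genes.

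**Figure D5:**
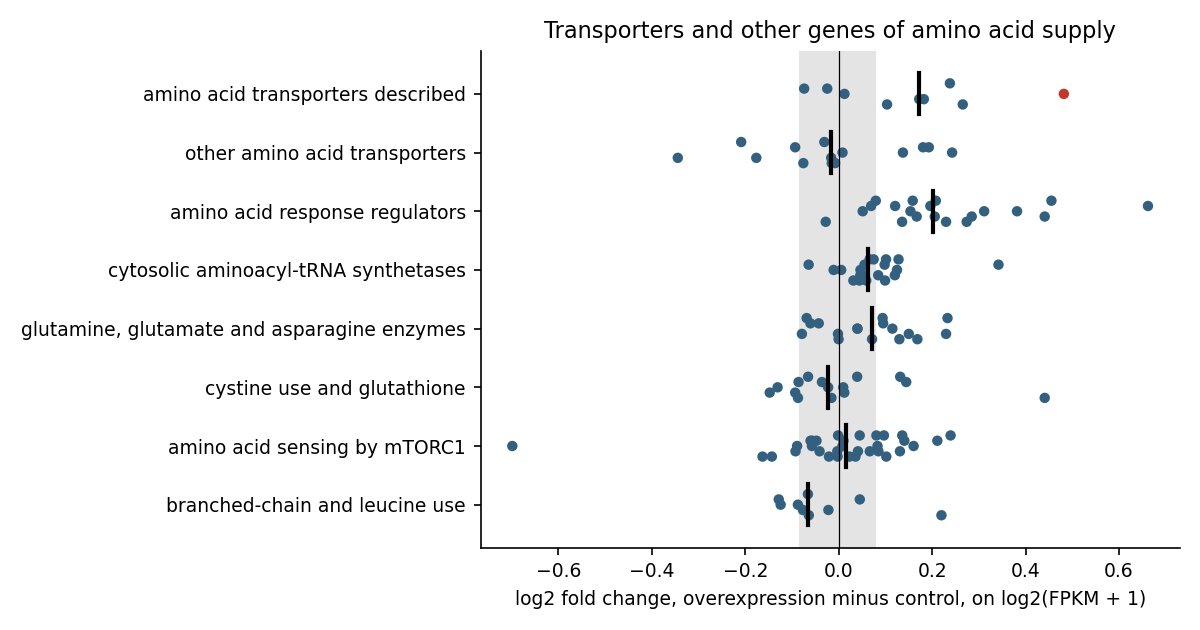
Log2 fold change, overexpression minus control, of the tested genes of each list. Points are genes, red where called at an adjusted p under 0.05 (SLC7A5) and blue otherwise, black lines are list medians, and the grey band is the middle range of all tested genes. Medians are 0.17 for the described transporters, -0.02 for the other transporters and 0.20 for the amino acid response regulators.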

How the data were processed

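Per the labels' protocols, Trizol-extracted, DNase-treated RNA went through poly(A) selection and a stranded kit, while the series' design text describes cytoplasmic RNA made without such selection. The authors deposited 1 table of gene-level FPKM per library, rounded to 2 decimals. Per the submitters' processing notes, RSEM 1.3.1, Cufflinks 2.2.1, Bowtie, edgeR, TopHat and the build hg18 were used, with no role or order, so the program behind the values is unknown.

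Symbols were matched for 19447 of 20330 identifiers, and chromosomes and overlapping genes came from GENCODE 29 (GRCh38). Sequences came from RefSeq and were not tied to the authors' build. In 5 of the 6 tables the incomplete last line was not read. Groups and replicate numbers came from the titles. Rows present in every table and averaging 1 FPKM or more, 11731 in all, were compared on log2(FPKM + 1) with limma 3.58.1 in R 4.3.3 (limma-trend, two-sided, Benjamini-Hochberg adjustment over all tested genes, threshold 0.05). For genes at low levels this scale understates changes. The fit was checked on simulated data with known changes. All of these were larger than the differences of the transporters, so changes of their size were not checked. Summaries were made with Python 3.11.15 and pandas 2.3.3. The smallest p of an exact permutation test of 3 against 3 is 0.1, so none was used.

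The transporters, the gene lists and the tests were chosen with earlier results of these data known. Of each other list the rule took up to 4 genes past the threshold, the 3 most abundant and, where none passed, the 2 with the lowest p, and not all of them are printed. SLC7A7, SLC7A8, SLC7A10 and the genes set beside SLC38A2 were chosen after their values were seen. Some genes of these sets are not reported here. Alternatives were another pseudocount (0.1), no filter, rescaling to TPM, quantile normalization, the replicate number as a block, limma without a trend, and each library left out.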

Additional observations from a re-analysis of the deposited data

How the results depend on the processing

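Over 12 alternatives, SLC7A5, SLC3A2, SLC1A5, SLC7A1, SLC1A4 and SLC7A11 kept positive log2 fold changes, whereas SLC7A6, SLC38A1 and SLC38A2 changed sign in 1, 4 and 2 of them. The median of the 9 transporters stayed between 0.128 and 0.175. SLC7A5 was called in 4 alternatives and the number of called transporters was 0 in the other 8: no filter, limma without a trend, the replicate block and 5 of the 6 fits that leave out a library, among which the number ran from 0 to 1. Over all genes 61 were called, against 22 with no filter, 1 without a trend, 19 with the replicate block, and between 1 and 60 with a library left out. After rescaling to TPM 61 were called, 30 higher and 31 lower. No other transporter was called under any alternative. Of the genes of amino acid response, sensing and use, between 0 and 2 were called with a library left out, the 2 being WARS1 and DDIT3 without overexpression replicate 2. The replicate numbers share no stated source, and deviations of same-numbered libraries correlated at -0.04, -0.06 and 0.045, so the block is no test of pairing. Why calls were lost was not tested. Depth in reads is unknown, which limits most the genes at low FPKM such as SLC43A1 and SLC1A4.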

Other observations

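Further genes that carry small osmolytes or respond to cell volume were looked up after the spread of SLC38A2 was seen. SLC5A3, which encodes the sodium and myo-inositol transporter, had 21.8, 10.03 and 12.7 FPKM in overexpression replicates 1 to 3 and 15.1, 19.7 and 27.9 FPKM in control replicates 1 to 3, the same order of libraries within each group as SLC38A2. SGK1, a kinase induced by hypertonic medium, had that order as well, with 27.7, 17.4 and 22.8 FPKM in overexpression replicates 1 to 3 and 14.4, 22.5 and 23.1 FPKM in control replicates 1 to 3. The taurine transporter SLC6A6 did not, at 13.6, 11.8 and 11.6 FPKM in overexpression replicates 1 to 3 and 11.8, 12.2 and 13.4 FPKM in control replicates 1 to 3. Aldose reductase, AKR1B1, had 316.5, 245.3 and 260.5 FPKM in overexpression replicates 1 to 3, an order like that of SLC38A2, and 256.1, 277.6 and 277.5 FPKM in control replicates 1 to 3, where replicates 2 and 3 were nearly equal. These genes were chosen with the pattern in view, 4.85% of all tested genes share the order, and no test was made.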
